A study of Mus musculus with 4 samples.

Results

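The cytosolic ribosomal protein genes were taken as the gene symbols of the deposited tables that begin Rpl or Rps followed by a number, together with the stalk genes Rplp0, Rplp1 and Rplp2 and with Rpsa. Rows with -ps in the symbol and the Rps6k kinases were left out. The rule found 83 of 33696 genes, of which 48 belong to the large subunit, 32 to the small subunit and 3 to the P stalk of the large subunit. They are called members below, and their share is the percent of all UMIs (unique molecular identifiers, each standing for a captured RNA molecule) that fall on them.

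The study measured single-cell RNA in bone marrow of lethally irradiated mice transplanted with a 50:50 mix of Tet2+/- CD45.2+ marrow and Tet2+/+ CD45.1+ competitor marrow. Tet2 encodes an enzyme that oxidises methylated cytosine in DNA, and loss of a copy is a common lesion of clonal blood formation. After 1 month of engraftment the mice were treated for 7 months. The B12+Butyrate group had injections of 0.29 µg vitamin B12 into the peritoneum 2 times a week and 100 mM sodium butyrate in the drinking water. The B12 group had the same injections with 100 mM sodium chloride in the water. The Butyrate group had PBS injections with 100 mM sodium butyrate, and the Control group had PBS injections with 100 mM sodium chloride. Butyrate, a product of fibre fermentation in the gut, inhibits histone deacetylases. All 4 groups carry the same Tet2+/- genotype in the cells measured, so no wild-type cells are compared here. Each group is 1 library, made from live CD45.2+ cells of 3 pooled, viably frozen marrows, in which Kit+ and Kit- cells had been mixed 50:50 after sorting. With n = 1 library per group, no difference between groups has a replicate check and no test was made. The mice in a library cannot be told apart.

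A ribosome is built from a small and a large subunit, each made of ribosomal RNA and of many proteins. The mRNAs of these proteins begin with a stretch of pyrimidines (the 5′ terminal oligopyrimidine or TOP motif), through which mTOR signalling and the RNA-binding protein LARP1 control their translation and stability. In marrow, progenitors grow and divide and carry many ribosomes, while the last steps of neutrophil maturation take place without division, with condensed chromatin and little new protein synthesis.

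The files held 34670 barcodes, of which 31209 passed limits of 500 genes and 1000 UMIs as minimum and 10% mitochondrial UMIs as maximum. These numbered 7616 in B12+Butyrate, 8048 in B12, 6793 in Butyrate and 8752 in Control, with 439004038 UMIs in all and library medians of 11583.5 to 12544.5 UMIs per cell. Barcodes over the mitochondrial limit made up 5.34% to 13.9% of a library. Pairs of libraries shared 13 to 30 barcode sequences. Called doublets were left out of classes, which leaves 29030 cells in 33 clusters made without the members, and 28 clusters were named by marker genes as 11 classes. Names ending in -like rest on those markers alone.

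To show what the start regions of these genes look like, the 30 bases around the annotated start of transcription (15 before it, then the start and 14 after it) are printed for 3 members whose level in mature neutrophil-like cells was near that in S phase neutrophil-like cells (Rps9, Rps27 and Rpl37), 3 that were among the most reduced in mature against GMP-like cells (Rps18, Rpl12 and Rpl10a) and the paralogue pair Rpl22l1 and Rpl22. The letters are from RefSeq on build GRCm38.p6, which is not the GRCm39 build of the count files, and read 5′ to 3′ on the gene's strand. Capitals mark the longest run of at least 6 C or T. Rpl10a and Rpl22 have 2 annotated starts, and the upstream one is shown.
Rps9: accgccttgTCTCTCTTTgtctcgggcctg
Rps27: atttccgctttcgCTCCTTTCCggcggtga
Rpl37: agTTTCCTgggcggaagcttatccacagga
Rps18: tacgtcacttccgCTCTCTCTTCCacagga
Rpl12: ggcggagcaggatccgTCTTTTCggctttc
Rpl10a: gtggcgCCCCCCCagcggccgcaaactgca
Rpl22l1: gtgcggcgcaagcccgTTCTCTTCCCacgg
Rpl22: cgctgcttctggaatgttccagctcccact
The windows lie at chr7:3704026-3704055 (plus strand) for Rps9, chr3:90213634-90213663 (minus) for Rps27, chr15:5116598-5116627 (plus) for Rpl37, chr17:33955651-33955680 (minus) for Rps18, chr2:32961697-32961726 (plus) for Rpl12, chr17:28328456-28328485 (plus) for Rpl10a, chr3:28805493-28805522 (plus) for Rpl22l1 and chr4:152324421-152324450 (plus) for Rpl22. Each spans the 5′ end of the first exon and the bases before it. Runs stood in the windows of all of these except Rpl22. In Rpl37 and Rpl10a the marked run lies wholly before the annotated start, so outside the annotated mRNA. Runs before the start are also counted below. RefSeq had a start region for 63 of the 83 members. A run of at least 6 C or T lay in the window of 38 of 63 members (60.3%), against 32.7% of all 27025 genes of the table. The letters CTTTCC stood on the gene's strand of the window in 10 of 63 members (15.9%), against 1.67% of all genes, and CTCTTT in 8 of 63 (12.7%), against 1.33%. Over the whole 300 bases from 250 before the start, CCGGAAG on either strand was found for 26 of 63 members (41.3%) and 9.93% of all genes, and TATAAA on either strand for 7 of 63 (11.1%) and 15.7%. The pyrimidine motifs can overlap each other and the runs. A match describes these letters and does not show a site in use.

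Over all cells the members held 48538773 UMIs, or 11.1% of the total. As the assay counts 3′ ends, a UMI stands for a molecule whatever its length, and levels were not divided by length. Of the 83 members, 80 were at 50 CPM (UMIs scaled to a total of 1000000) or more over all cells, with a median of 1335 CPM over the 83, and the 10 most abundant took 21.3% of the members' UMIs. Among the highest levels were those of Rps24 at 2656 CPM, Rps12 at 2613 CPM, Rpl13 at 2459 CPM and Rps27a at 2372 CPM. Rps24 and Rps12 belong to the small subunit, Rpl13 to the large one, and Rps27a is made as a fusion with ubiquitin that is cut apart after translation. At the low end of the 80 were Rpl35 at 427 CPM and the paralogues Rpl22l1 at 344 CPM, Rps27l at 252 CPM and Rpl7l1 at 53.9 CPM. Below 50 CPM were Rpl3l at 1.61 CPM, a paralogue known from striated muscle, Rpl39l with 20 UMIs and Rpl10l with 1 UMI, both known from testis.

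The members' share was highest in HSC/MPP-like cells (stem and multipotent progenitors) and in basophil or mast-like cells, and lowest by far in neutrophil-like cells. In HSC/MPP-like cells the share was 22.2% in B12+Butyrate, 21.95% in B12, 21.5% in Butyrate and 20.01% in Control. In basophil or mast-like cells it was 19.5% to 21.7% over the 4 libraries. GMP-like cells, the granulocyte-monocyte progenitors, had 16.7% to 17.8%. All 4 libraries placed these classes far above the neutrophil-like class. In neutrophil-like cells the share was 4.18% in B12+Butyrate, 4.35% in B12, 4.62% in Butyrate and 4.44% in Control. The exact binomial 95% intervals of these shares cover counting error only, and the widest over classes and stages spanned 0.306 percentage points, in the 21 plasmacytoid-DC-like cells of B12.

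Between these ends, the other classes lay close together. Monocyte-like cells had 16.1% to 17.2% over the 4 libraries, conventional-DC-like cells 16.6% to 17.4%, B-lineage-like cells 16.3% to 17.3% and NK-like cells 15.6% to 17.4%. T-like cells ran from 15.1% to 18.3%, and plasmacytoid-DC-like cells from 13.9% to 14.6%. Their ranges overlap, except that the plasmacytoid-DC-like values were below those of every other class named here. Plasma-like cells had 8.58% to 11.7%, from only 2 to 17 cells a library. Median depth was not the same across classes: it was 3934.5 to 5176 UMIs per cell in B-lineage-like cells and 18854 to 25137 in HSC/MPP-like cells.

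**Figure D1:**
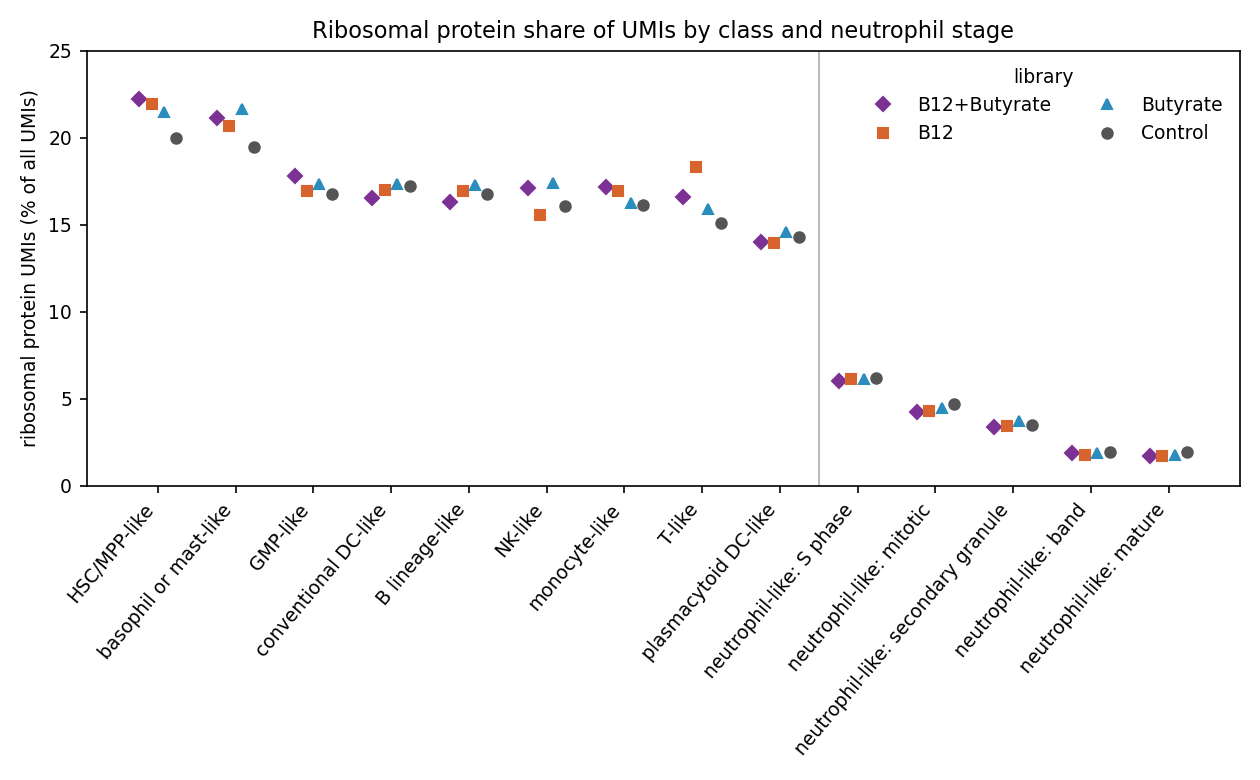
Share of all UMIs that fall on the 83 ribosomal protein genes (vertical axis, percent), for 9 classes and the 5 neutrophil-like stages (horizontal axis), with a point for each library. HSC/MPP-like cells sit at 20.01% to 22.2%, and the stages descend to 1.73% to 1.95% in mature neutrophil-like cells.

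The neutrophil-like cells were split into stages by markers of S phase, mitosis, secondary granules and mature cells, with clusters between the last of these called band. The share fell at each step up to band in every library. It was 6.01% in S phase cells of B12+Butyrate, 6.13% in B12, 6.13% in Butyrate and 6.20% in Control. Mitotic cells had 4.25% to 4.70% over the 4 libraries, secondary granule cells 3.36% to 3.74% and band cells 1.78% to 1.95%. Mature cells had 1.73% in B12+Butyrate, 1.73% in B12, 1.79% in Butyrate and 1.95% in Control. The ranges of neighbouring stages did not overlap until band and mature, whose ranges do.

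By the share of all UMIs, the step from GMP-like to S phase cells was larger than any later one. The share in GMP-like cells was 2.70 to 2.96 times that in S phase neutrophil-like cells, and that in secondary granule cells was 1.80 to 1.97 times that in band cells. From GMP-like to mature cells the ratio was 8.58 to 10.3. Granule and alarmin transcripts, which are made in large amounts as neutrophils mature, took 27.7% to 45.5% of the UMIs of the stages and lower the share of everything else. With 22 such genes left out of the total, the GMP-like over mature ratio was 7.09 to 8.76, the GMP-like over S phase ratio was 1.98 to 2.17 and the secondary granule over band ratio was 1.98 to 2.21, so the last 2 overlapped.

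Counted per cell, member UMIs differed more than all UMIs did at each step from GMP-like to band cells. The band over mature ratios overlapped, at 1.58 to 1.84 for member UMIs and 1.61 to 1.75 for all UMIs. The median cell held 3817 to 4410 member UMIs in GMP-like cells of the 4 libraries, 978 to 1104 in S phase, 718 to 792 in mitotic, 344 to 389 in secondary granule, at most 140 in band and 73 to 83 in mature cells. From GMP-like to mature cells that is a ratio of 46.0 to 58.0, against 5.92 to 6.51 for all UMIs per cell. The number of UMIs per cell reflects both RNA content and capture, which cannot be told apart.

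**Figure D2:**
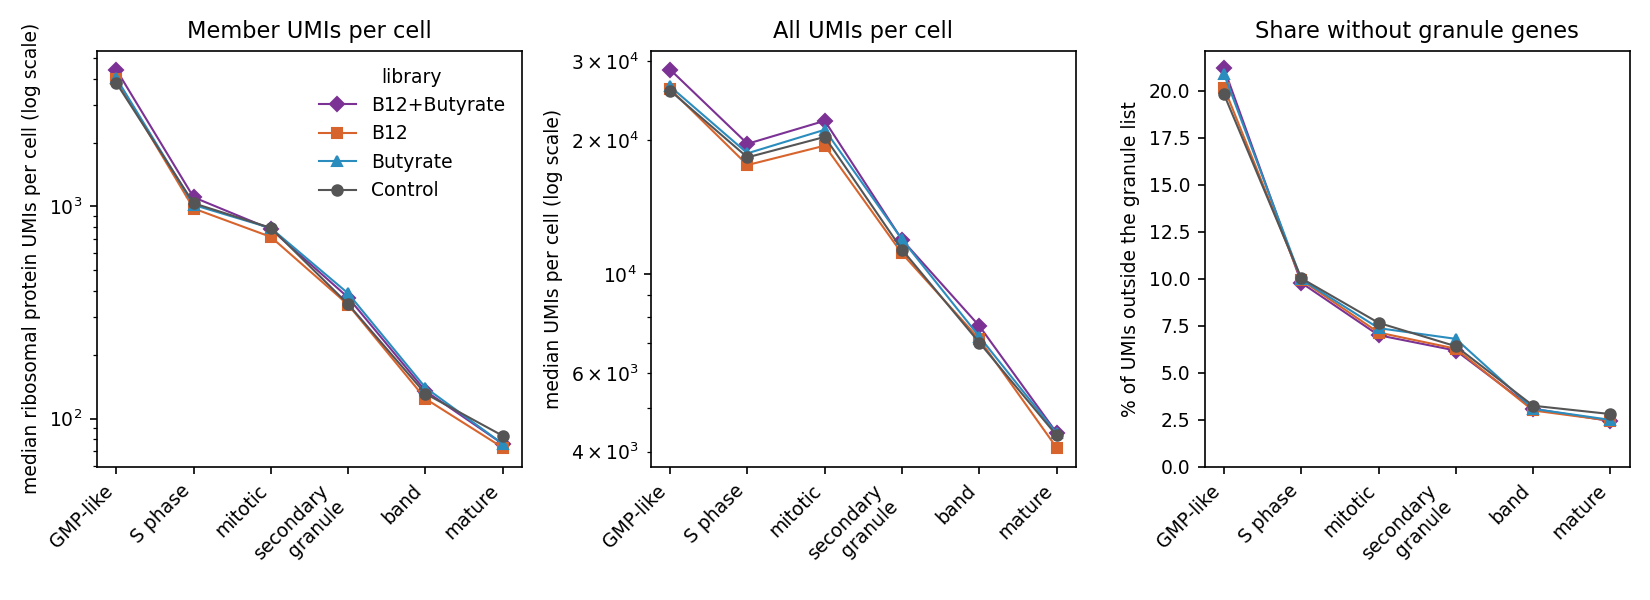
Median member UMIs per cell (left, log scale), median UMIs of all genes per cell (centre, log scale) and the members' share of UMIs outside the granule and alarmin list (right, percent) from GMP-like cells through the 5 neutrophil-like stages, with a line for each library. Member UMIs per cell run from 3817 to 4410 in GMP-like cells down to 73 to 83 in mature cells.

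Gene by gene, the fall was close to general. Between mature and GMP-like cells, 79 of the 81 members that reached 10 CPM in either stage of any library were lower by a log2 ratio of 1 or more in 4 of 4 libraries, where 33.4% of all genes were, and their median log2 ratio was -3.57 against -0.69 for all genes. The exceptions were Rps9 at -0.68 and Rpl3l at 0.94. Small-subunit members had a median of -3.64 and large-subunit members of -3.39. Between S phase and GMP-like cells 78 of 80 members passed the same limit, with 7.33% of all genes doing so, and the median was -1.47. Between mitotic and S phase cells none of 80 passed it, with 1.05% of all genes, but 79 of 80 were below 0 in 4 of 4 libraries at a median of -0.44. Between band and secondary granule cells 30 of 80 passed, with 2.86% of all genes, at a median of -1.02. In mature over band cells none of 81 passed, with 1.44% of all genes, and 11 of the 81 were above 0 in 4 of 4 libraries.

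The most reduced members were Rpl10a, Rps18, Rpl12 and Rps20. Rps18, a protein of the head of the small subunit, was at 3293, 3118, 3244 and 2965 CPM in GMP-like cells of B12+Butyrate, B12, Butyrate and Control, at 910, 938, 921 and 897 CPM in S phase cells, and at 45.8, 61.7, 71.4 and 89.3 CPM in mature cells of the same libraries. Stages did not overlap, and the mean log2 ratio of mature over GMP-like cells was -5.39. Rpl10a, a protein of the L1 stalk, was at 1487, 1404, 1448 and 1448 CPM in GMP-like cells in the same order of libraries and at 15.002, 22.8, 21.4 and 39.8 CPM in mature cells (mean log2 ratio -5.44). Rpl12, which sits at the base of the P stalk, had 1866 to 2310 CPM in GMP-like and 32.8 to 58.9 CPM in mature cells (-5.35), and Rps20 had 3061 to 3194 CPM and 51.3 to 111 CPM (-5.30). For all 4 genes the lowest mature level was that of B12+Butyrate and the highest that of Control.

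A few members differed much less between S phase and mature cells than the others, and they are named here because their values stood apart. They were not level at the stages between. Rps9, a small-subunit protein that binds early in assembly, was at 1394, 1465, 1445 and 1476 CPM in S phase cells of B12+Butyrate, B12, Butyrate and Control and at 1507, 1606, 1440 and 1676 CPM in mature cells. With the libraries summed, Rps9 was at 1444 CPM in S phase, 1286 in mitotic and 1358 in secondary granule cells. It was then at 1166 CPM in band and 1574 CPM in mature cells. Rps27, a zinc-binding small-subunit protein, was at 506, 476, 564 and 493 CPM in S phase and at 566, 487, 606 and 550 CPM in mature cells of the same libraries. Mean log2 ratios of mature over S phase cells were 0.11 for Rps9, 0.11 for Rps27, -0.01 for Rpl37 and -0.34 for Rps27a, beside a median of -1.97 over 81 members, of which 73 were lower by 1 or more in 4 of 4 libraries (22.2% of all genes). Against GMP-like cells the mature level was lower, with mean log2 ratios of -1.10 for Rps27 and -1.46 for Rpl37. Those 4 genes made up 5.28% to 5.601% of the members' UMIs in GMP-like cells, 6.73% to 6.95% in S phase cells and 21.0% to 23.1% in mature cells. Without them, the members' share of all UMIs was 15.8% to 16.8% in GMP-like and 1.33% to 1.54% in mature cells.

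Rpl3l moved the other way at a very low level. It had 20, 35, 15 and 28 UMIs in mature cells of B12+Butyrate, B12, Butyrate and Control, or 7.90, 12.3, 10.7 and 10.9 CPM, against 7, 15, 4 and 6 UMIs in S phase cells, or 0.49, 0.98, 0.34 and 0.49 CPM. It reached the level for comparison only through the mature cells, so it had to come out higher. Its partner Rpl3 had 40.3 to 62.8 CPM in mature and 380 to 387 CPM in S phase cells.

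**Figure D3:**
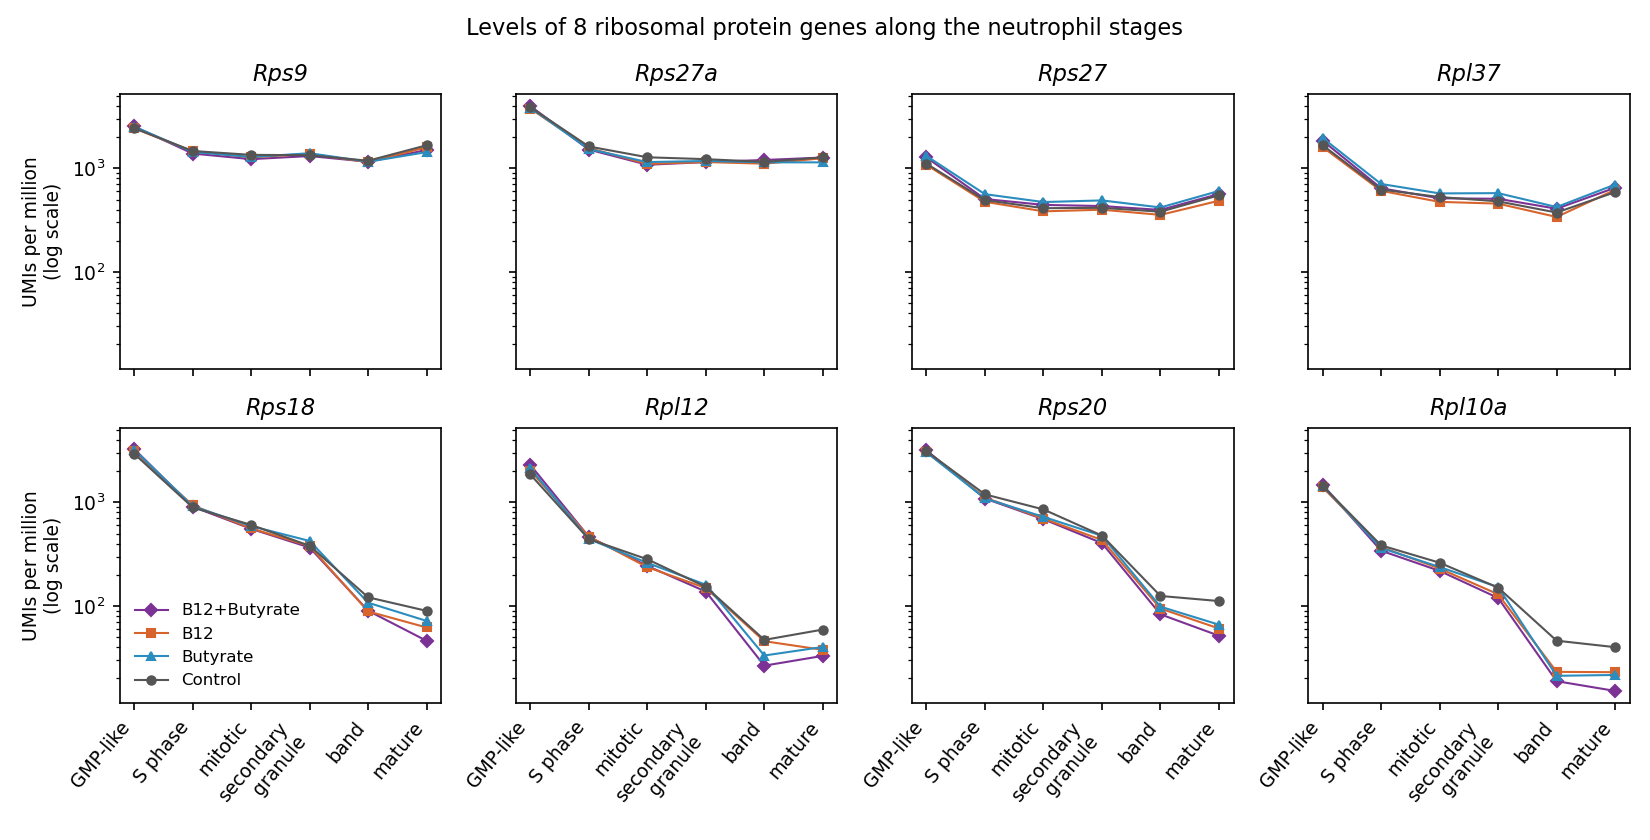
CPM (log scale) of 8 ribosomal protein genes from GMP-like cells through the neutrophil-like stages, with a line for each library. Rps9, Rps27 and Rpl37 (top) are near their S phase level in mature cells, with lower levels in band cells. Rps27a (top) has a log2 ratio of -0.34 for mature over S phase cells. Rps18, Rpl12, Rps20 and Rpl10a (bottom) descend, to 15.002 CPM for Rpl10a in mature cells of B12+Butyrate.

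Markers of other cell types were also counted in mature neutrophil-like cells, where free RNA in the droplets can add UMIs of members. The 13 B-lineage markers summed to 90.1 to 131 CPM there, or 0.654% of their level in B-lineage-like cells, with 3 of 13 at 0. The 8 GMP markers summed to 56.5 CPM in B12+Butyrate, 116 in B12, 91.3 in Butyrate and 310 in Control, or 0.537% of their level in GMP-like cells, with none at 0. The GMP markers were thus highest in the library where Rps18, Rpl10a, Rpl12 and Rps20 were highest in mature cells, and their part in those levels was not tested. The 10 monocyte markers summed to 1373 to 1426 CPM, some of which neutrophils also express. The 9 basophil or mast markers summed to 614 to 917 CPM, or 5.62% of their level in basophil or mast-like cells, with 2 of 9 at 0, and their part in the members' levels was not tested.

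Gene groups that act with the ribosome had medians below 0 in mature over GMP-like cells, nearer to 0 than that of the members, where 33.4% of all genes were lower by the same limit and the median of all genes was -0.69. Of 17 translation factors and related genes known to have TOP mRNAs, 16 were lower by a log2 ratio of 1 or more in 4 of 4 libraries in mature over GMP-like cells, with a median of -3.08 and Npm1 lowest at -4.68. Eef1a1, the elongation factor that brings aminoacyl-tRNA to the ribosome, had 3289 to 3534 CPM in GMP-like and 255 to 301 CPM in mature cells. The least reduced was Pabpc1, the cytoplasmic poly(A)-binding protein, at -1.14, and from S phase to mature cells it was level at 0.09. Of 34 ribosome biogenesis genes tested, 27 were lower in 4 of 4 libraries, with a median of -2.01, from Nop10 at -3.74 to Polr1a at 1.45. Of 77 mitochondrial ribosomal protein genes 65 were lower, with a median of -1.85, from Mrps14 at -3.08 to Mrpl33 at 1.201. Of 11 genes of TOP repression and the mTOR branch 3 were lower, with a median of -0.64, both near the values for all genes, from Larp1 at -2.94 to Eif4ebp1, a repressor of cap-dependent translation, at 1.03.

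Ribosome proteins that the symbol rule leaves out gave a mixed picture. Fau, made as a fusion of a ubiquitin-like protein with a small-subunit protein, had 1903 to 2007 CPM in S phase and 2005 to 2132 CPM in mature cells, a mean log2 ratio of 0.08. Rpl36al was the most reduced of the 5, at -4.91 in mature over GMP-like cells.

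Within the pool of member UMIs, proportions differed between classes for some genes and little for others. Of 80 members at 50 CPM or more, 40 ranged at least 2-fold in their percent of member UMIs over 9 classes and the 5 stages. Of the 40, Rplp0 and Rpl22l1 were at the limit, at 2.00-fold each. No such range was counted for all genes, so the 40 do not set members apart from other genes. Rpl11, a protein of the 5S particle that binds Mdm2, ranged least of the 80, and Rpl23 ranged 1.29-fold. The widest range was that of Rpl12, with 1.66% of member UMIs in T-like and 0.203% in band cells, a ratio of 8.19. Next were Rpl10a at 6.73-fold, Rps9 at 6.26-fold (8.65% in mature and 1.38% in T-like cells), Rps27l at 5.70-fold, Rps20 at 5.27-fold, Rps27a at 5.08-fold, Rpl31 at 5.03-fold, Rps18 at 4.96-fold, Rps27 at 4.41-fold and Rpl36a at 4.40-fold. For 9 of these 10 the high or the low end was a neutrophil-like stage.

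Rpl31 was the exception, as its ends were plasmacytoid-DC-like and NK-like cells. It made up 1.14% to 1.53% of member UMIs in plasmacytoid-DC-like cells and 0.224% to 0.290% in NK-like cells. Its level was 1622 to 2143 CPM in plasmacytoid-DC-like cells over the 4 libraries, and the next highest class, HSC/MPP-like cells, had 789 to 1013 CPM. Both ranges lie apart, although the plasmacytoid-DC-like cells numbered only 21 to 81 a library.

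**Figure D4:**
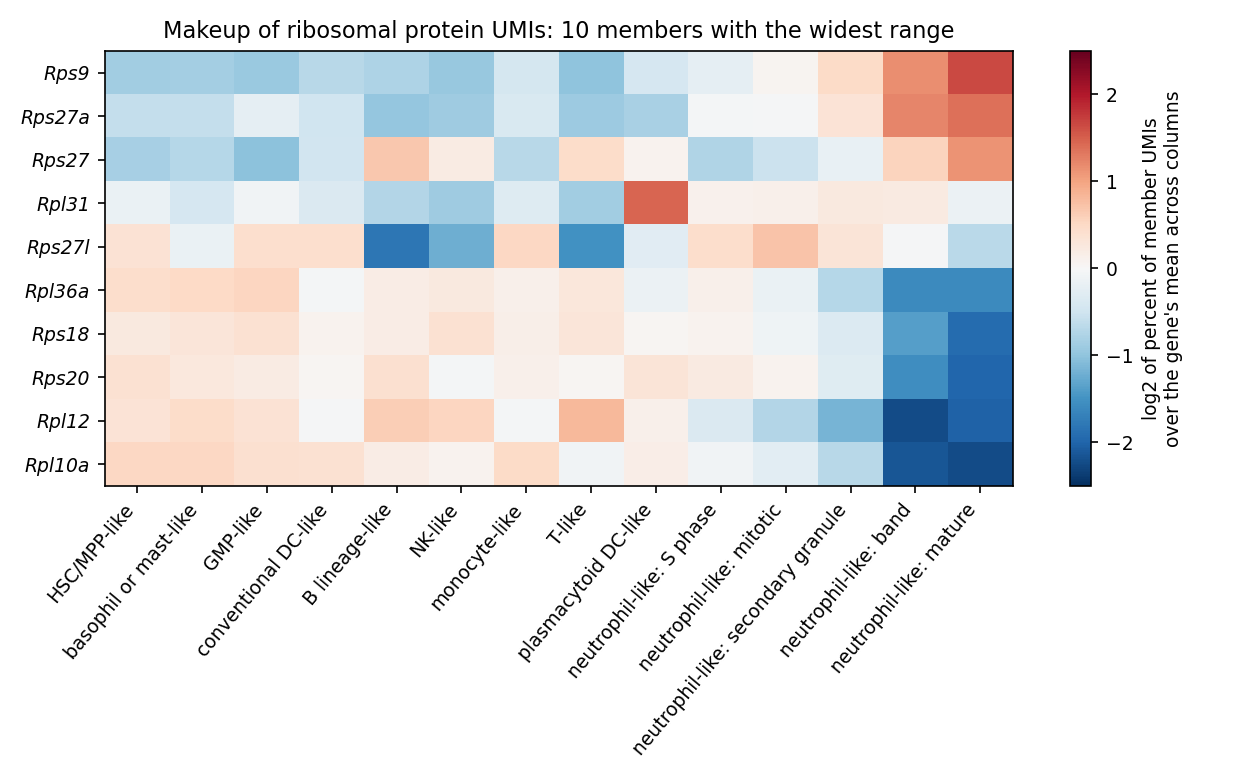
Makeup of the member UMIs in 9 classes and 5 neutrophil-like stages (columns) for the 10 members with the widest range (lines, sorted by mature cells). Colour gives the log2 of a gene's percent of member UMIs (mean of 4 libraries) over its mean across columns, with red above and blue below. Rps9 stands out in mature cells at 8.65%, and Rpl31 in plasmacytoid-DC-like cells at 1.31%.

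Rps27l and Rps27 differ in few residues and were used differently by lineage. Rps27l, a p53 target in human cells, had 22.9% to 36.5% of the UMIs of Rps27 in HSC/MPP-like cells, 29.1% to 40.05% in GMP-like and 23.5% to 37.1% in monocyte-like cells. In B-lineage-like cells it had at most 2.60% and in T-like cells 2.80% to 3.87%. Both genes contributed: Rps27 was at 3608 to 4182 CPM in B-lineage-like cells and 1561 to 1902 CPM in HSC/MPP-like cells, and Rps27l at 76.8 to 96.8 CPM and 436 to 570 CPM. Along the neutrophil-like stages the percent was 25.7 to 33.3 in S phase and 2.59 to 5.603 in mature cells, where Rps27l rests on 200 UMIs in all.

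The balance of Rpl22l1 and Rpl22 also differed between classes. Rpl22l1, which can stand in for the RNA-binding protein Rpl22, had 33.7% to 36.4% of the UMIs of Rpl22 in HSC/MPP-like cells, 40.7% to 46.5% in GMP-like cells, 50.5% to 52.4% in S phase and 67.7% to 69.3% in mitotic and 63.1% to 72.2% in secondary granule neutrophil-like cells. Monocyte-like cells had 26.4% to 28.7% and conventional-DC-like cells 19.1% to 22.3%. These ranges do not overlap among HSC/MPP-like, GMP-like, S phase and mitotic cells. As means of the libraries, Rpl22l1 and Rpl22 made up 0.398% and 0.583% of member UMIs in mitotic cells. They made up 0.236% and 0.469% in band and 0.201% and 0.382% in mature cells, so Rpl22l1 was lower against Rpl22 there than in mitotic cells. Rpl7l1, known from ribosome assembly, had 3.35% to 4.14% of the UMIs of Rpl7 in HSC/MPP-like and 6.87% to 8.002% in neutrophil-like cells. Rpl39l and Rpl10l had too few UMIs to compare with Rpl39 and Rpl10.

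The stalk and the 5S particle followed the other members. Rplp0, the scaffold of the stalk, had 2194 to 2547 CPM in GMP-like and 132 to 145 CPM in mature cells, Rplp1 3588 to 3812 and 253 to 334 CPM, and Rplp2 2890 to 3165 and 227 to 254 CPM. The 3 stalk genes had a median log2 ratio of -3.67. Of the 5S particle, Rpl5 had 1519 to 1678 CPM in GMP-like and 67.3 to 95.9 CPM in mature cells, and Rpl11 2112 to 2146 and 182 to 228 CPM. Rps14 and Rps19, small-subunit proteins whose loss causes anaemia in human disease, had 2596 to 2818 and 2543 to 2766 CPM in GMP-like cells and 391 to 425 and 70.7 to 115 CPM in mature cells. Rps6, the mTOR-pathway substrate, had 1616 to 1719 CPM in GMP-like and 102 to 126 CPM in mature cells. The 18 members known from Diamond-Blackfan anaemia in humans were also compared in mature over GMP-like cells. Of these, 18 were lower by a log2 ratio of 1 or more in 4 of 4 libraries, with a median of -3.52. By the same limit 79 of 81 members and 33.4% of all genes were lower, so this count does not set these 18 apart from other members.

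Between libraries, the share over all cells moved with the mix of cells. It was 10.3% in B12+Butyrate, 10.6% in B12, 11.9% in Butyrate and 11.6% in Control, while neutrophil-like cells, with their low share, made up 53.4%, 53.4%, 39.0% and 40.7% of the cells in the same order. The log2 ratio of shares was -0.12 for B12 over Control, 0.04 for Butyrate over Control, -0.05 for B12+Butyrate over B12 and -0.21 for B12+Butyrate over Butyrate. With the same makeup of classes in each library, the share was 11.3% in B12+Butyrate, 11.2% in B12, 11.3% in Butyrate and 10.9% in Control, and the ratio turned positive for B12 over Control (0.04), for B12+Butyrate over B12 (0.01) and for B12+Butyrate over Butyrate (0.01). Comparisons that share a library, such as both against Control, are not independent. The mixing of Kit+ and Kit- cells sets part of the makeup of every library.

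Members were also counted past a log2 ratio of 0.25 over all cells. In B12 over Control 0 of 80 were higher and 2 lower, Rps27 at -0.27 and Rpl41 at -0.26, where 1.87% and 10.5% of all genes were, and the median was -0.12 against -0.06 for all genes. In Butyrate over Control 2 were higher, Rps29 and Rps27 at 0.30 each, and 0 lower, with 3.03% and 2.14% of all genes. In B12+Butyrate over B12 0 were higher and 2 lower, Rps2 and Rps27l at -0.25 each, with 3.35% and 1.79% of all genes. In B12+Butyrate over Butyrate 0 were higher and 18 lower, from Rps28 at -0.39, with 1.85% and 9.34% of all genes. Levels taken over the members' UMIs alone remove any shift common to the members, and on that scale 0 were lower. Over the UMIs of other genes (outside the members, mitochondrial genes and granule list) 7 were lower.

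Below those limits over all cells, Rpl37a, Rps26 and Rps21 followed at -0.22 each in B12 over Control, and those above 0 included Rpl23a at 0.12, Rpl31 at 0.09, Rps25 at 0.07 and Rpl7l1 at 0.07. The next highest in Butyrate over Control were Rpl37 at 0.25, Rpl38 at 0.22 and Rps28 at 0.22, and at the low end were Rps27l at -0.19, Rps2 at -0.17, Rps27a at -0.11 and Rpl22l1 at -0.10. In B12+Butyrate over B12, Rps4x was at -0.14 and Rpl27 at -0.13, and the highest were Rps27 at 0.24, Rps29 at 0.12, Rpl37 at 0.08 and Rpl12 at 0.07. Rps27 had its highest level in B-lineage-like cells, which made up 14.3% of the cells in B12+Butyrate, 6.99% in B12, 15.1% in Butyrate and 10.4% in Control, and their part in its ratios over all cells was not tested. In B12+Butyrate over Butyrate, Rpl37 was at -0.34, Rps27 and Rpl39 at -0.33 and Rpl41 at -0.32, while Rpl23a was at 0.06, Rpl7l1 at 0.02, Rpl31 at -0.01 and Rps27l at -0.05.

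HSC/MPP-like cells had a higher share in each treated library than in Control. Median UMIs per cell were 25137 in B12+Butyrate, 22131.5 in B12, 22137.5 in Butyrate and 18854 in Control, so the highest and the lowest depth were in the same libraries as the highest and the lowest share, which was 22.2%, 21.95%, 21.5% and 20.01%. The part of depth in this was not tested. Leaving out the granule list gave 22.4%, 22.1%, 21.5% and 20.1%. In B12 over Control 77 of 80 members were above 0, with a median log2 ratio of 0.13 against -0.005 for all genes, and 9 passed 0.25, where 8.46% of all genes did. In Butyrate over Control 75 were above 0, with a median of 0.09 against -0.03 for all genes, and 7 passed, where 3.86% of all genes did. The share of all genes above 0 was not counted.

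Rpl23a, a protein at the exit of the ribosomal tunnel, was chosen for HSC/MPP-like cells after its values were seen. It was at 1946 CPM in B12+Butyrate, 1892 in B12, 1595 in Butyrate and 1441 in Control, so both libraries with B12 lay above both without. The log2 ratio was 0.39 for B12 over Control and 0.29 for B12+Butyrate over Butyrate. Over 6 classes (HSC/MPP-like, GMP-like, monocyte-like, B-lineage-like, T-like and neutrophil-like cells) the ratio of Rpl23a was above 0 in 6 of 6 for B12 over Control, from 0.07 to 0.39, and in 6 of 6 for B12+Butyrate over Butyrate, from 0.05 to 0.31. For comparison, 19 of the 80 members were above 0 in 6 of 6 for B12 over Control and 3 of 80 for B12+Butyrate over Butyrate.

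Most ribosome biogenesis genes had higher levels in B12 than in Control in the same cells. In HSC/MPP-like cells 20 of 35 passed a log2 ratio of 0.25 in B12 over Control, 34 of 35 were above 0, and the median was 0.26, where 8.46% of all genes passed. Median depth was 22131.5 UMIs per cell in B12 and 18854 in Control, and its part in this was not tested. Myc, the transcription factor that drives ribosome synthesis, had 101 CPM in B12+Butyrate, 114 in B12, 73.5 in Butyrate and 66.8 in Control, a log2 ratio of 0.69 for B12 over Control. Ncl, nucleolin, had 844, 957, 784 and 804 CPM, and Npm1, nucleophosmin, 1593, 1742, 1417 and 1474 CPM in the same order. For all 3, both libraries with B12 were above both without. These 3 were picked from longer lists, Npm1 from that of the translation factors. Not all of the 35 genes held this order, with Pes1 and Polr1d among those that did not. In Butyrate over Control 1 of the 35 passed, where 3.86% of all genes did, with a median of 0.03, and in B12+Butyrate over B12 31 of 35 were below 0, with a median of -0.15. Mitochondrial ribosomal protein genes in HSC/MPP-like cells were also mostly above 0 in B12 over Control, 65 of 78 with a median of 0.12. In that comparison, biogenesis genes above 0 were 27 of 33 in monocyte-like and 7 of 10 in neutrophil-like cells. They were 20 of 34 in GMP-like, 20 of 34 in T-like and 11 of 31 in B-lineage-like cells.

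Other classes were compared in the same way. In GMP-like cells the median log2 ratio of 80 members was 0.02 for B12 over Control and 0.05 for Butyrate over Control. In monocyte-like cells it was 0.07 for B12 over Control, with 73 of 80 above 0 and 2 past 0.25 (5% of all genes). That class holds a cluster with 19.4% in B12+Butyrate, 18.2% in B12, 17.4% in Butyrate and 16.7% in Control, led by Nrg1 and Itga1, and a larger one led by Fn1 and Vcan at 15.6%, 15.8%, 15.5% and 15.8%. In T-like cells the median for B12 over Control was 0.26 and 44 of 80 passed (19.1% of all genes).

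The T-like class held clusters of unequal share. One cluster, led by Tox and Ikzf2 with a median of 3615 UMIs, had a share of 11.7%, and another, led by Ccl5 with a median of 6072.5 UMIs, had 19.7%. The low-share cluster gave 108 of 181 T-like cells in B12+Butyrate, 56 of 149 in B12, 184 of 327 in Butyrate and 243 of 394 in Control. Within it the share was 12.2% in B12+Butyrate, 13.05% in B12, 11.2% in Butyrate and 11.6% in Control, and within the other 20.5%, 20.5%, 19.6% and 18.8%. Both clusters kept B12 above Control, by less than the class as a whole.

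In mature neutrophil-like cells the members were lower in the treated libraries than in Control. In B12 over Control 34 of 81 passed -0.25, where 13.3% of all genes did, with a median of -0.18, and in Butyrate over Control 26 passed, where 13.9% did, with a median of -0.13. The lowest were Rpl36a at -0.92, Rpl14 at -0.85 and Rps20 at -0.79 in B12 over Control. These rest on few UMIs (172 for Rps20 in B12 and 285 in Control), and the GMP markers above were also lower in B12 and Butyrate than in Control. In S phase cells the medians were -0.02 for both comparisons.

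**Figure D5:**
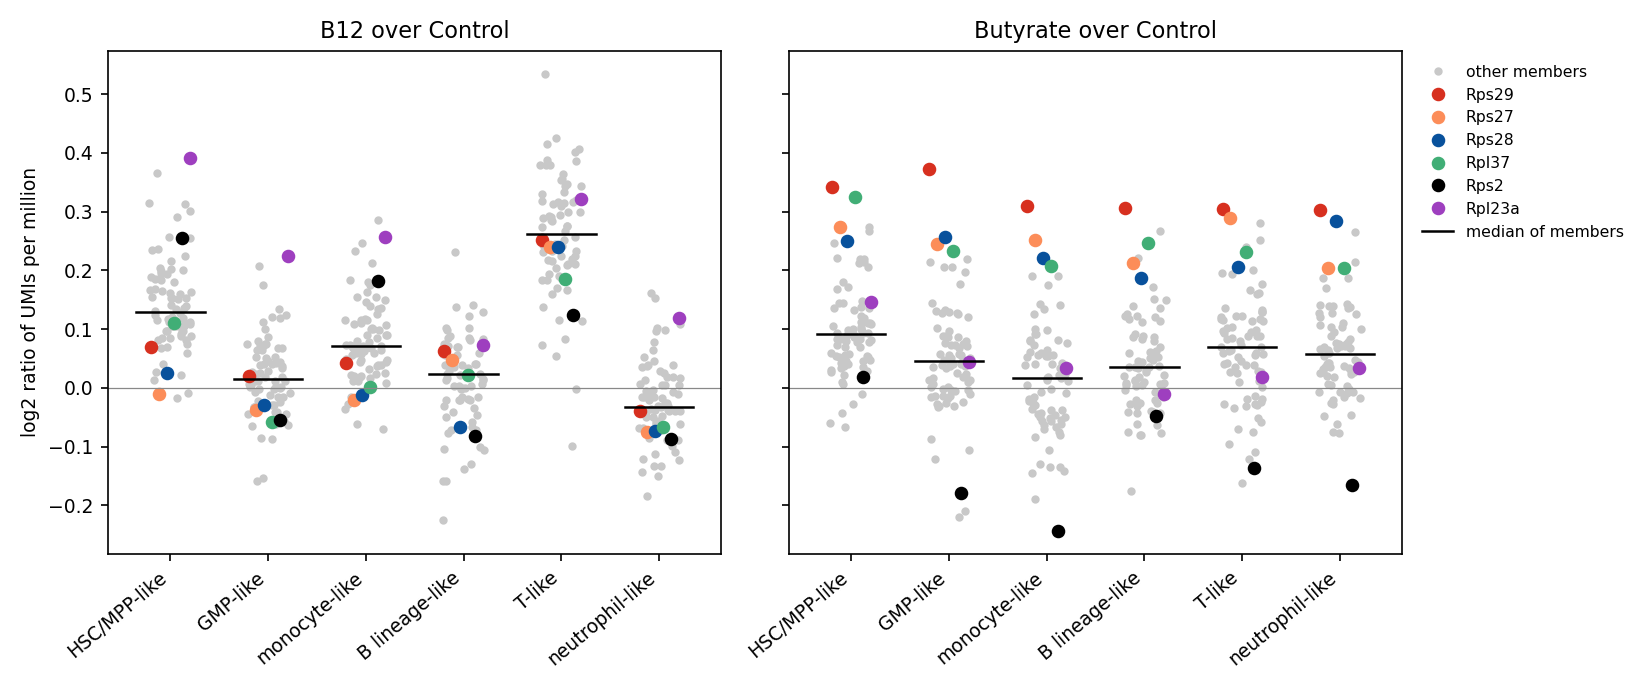
Log2 ratio of CPM of the 80 members at 50 CPM or more in 6 classes, for B12 over Control (left) and Butyrate over Control (right). Grey points are members, black bars their medians and coloured points 6 named members. Rps29 lies at 0.30 to 0.37 in the 6 classes for Butyrate over Control, and Rps2 is the lowest of the named genes there.

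For Butyrate over Control, 40 of 80 members were above 0 in 6 of 6 classes and 1 was below 0 in 6 of 6. With levels taken over the members' UMIs alone, 19 of 80 were above 0 in 6 of 6 and 22 were below. The same counts were not made for all genes. Rps29 was at 2794 CPM in GMP-like cells of B12+Butyrate, 2401 in B12, 3066 in Butyrate and 2366 in Control, and at 3033, 2620, 3167 and 2497 CPM in HSC/MPP-like cells. Its log2 ratio in Butyrate over Control was 0.30 to 0.37 in the 6 classes, so it passed 0.25 in 6 of 6. The share of all genes that did was 3.86% (HSC/MPP-like), 2.47% (GMP-like), 4.17% (monocyte-like), 6.31% (B-lineage-like), 13.9% (T-like) and 1.23% (neutrophil-like). Rps29 was named for having the highest ratio of the members over all cells, and the classes are parts of the same libraries. The 6 classes are thus not independent repeats. Rps27 ran from 0.20 to 0.29, Rps28 from 0.19 to 0.28, Rpl37 from 0.20 to 0.33, Rpl38 from 0.19 to 0.28 and Rpl35 from 0.17 to 0.28. Levels taken over the members' UMIs alone left Rps29 at 0.23 to 0.32 and Rps27 at 0.15 to 0.24. In mature neutrophil-like cells Rps28 was an exception, with 60.4 CPM in B12+Butyrate, 55.4 in B12, 58.5 in Butyrate and 81.1 in Control.

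The same genes were compared in the libraries with B12. In B12+Butyrate over B12 the log2 ratio of Rps29 was 0.05 to 0.23 over the 6 classes, that of Rps27 -0.03 to 0.24, that of Rps28 -0.08 to 0.17, that of Rpl37 -0.01 to 0.20, that of Rpl38 0.01 to 0.14 and that of Rpl35 -0.08 to 0.14. Whether the effect of butyrate differs with and without B12 cannot be tested with 1 library per group. Rps2 went the other way, at 2872 CPM in GMP-like cells of B12+Butyrate, 2906 in B12, 2665 in Butyrate and 3019 in Control. It was below 0 in 5 of 6 classes for Butyrate over Control (from -0.24 to 0.02) and in 5 of 6 for B12+Butyrate over B12 (from -0.22 to 0.02).

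By their median, members with short mRNAs had higher ratios with butyrate than the others. In the GENCODE M21 annotation the principal mRNAs of the 83 members are 345 to 5130 nt long (median 827), with Rps15a the longest. Of these, 11 are under 500 nt, among them Rps27, Rps28, Rps29 and Rpl38, though not Rpl37 at 835 nt. Rps27l and Rplp1, at 499 nt each, are also among the 11. These are annotated lengths, and the lengths of the mRNAs present in these cells were not measured. Over all cells in Butyrate over Control, the 11 short members had a median log2 ratio of 0.13 and the 69 others of 0.03. Of the 11, 9 lay above the others' median, while Rps27l was the lowest of the 80 members at -0.19. The correlation of the log2 ratio with log2 length was -0.27 over 80 members, which come from the same libraries, and for B12 over Control it was 0.06. For B12+Butyrate over B12 it was -0.28. Butyrate was the library with the most barcodes over the mitochondrial limit, 13.9% against 5.34% to 9.43% in the others, whereas B12+Butyrate had the fewest, and the part of RNA or cell quality in these ratios was not tested.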

How the data were processed

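Single-cell 3′ RNA (10x Genomics v3.1) was measured in 1 library per group. The deposited matrices hold UMI counts per gene and barcode. Their headers name Cell Ranger 7.1.0, which the authors ran, and GRCm39 is the build in the submitters' processing notes. Counting of intron reads is not stated in the labels or headers. Members and gene lists were chosen with earlier results of these data known.

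Barcodes were kept at 500 genes, 1000 UMIs and 10% mitochondrial UMIs. Doublets were called against simulated ones at 0.8% per 1000 barcodes (492 in B12+Butyrate, 578 in B12, 431 in Butyrate and 678 in Control). Cells were clustered without members, in the scaling total or the variable genes, on 2000 variable genes and 30 components with 20 neighbours and Leiden resolution 1, without integration (scanpy 1.11.5, leidenalg 0.10.2). Clusters were named by fixed markers at a mean z-score of 1.25 (0.95 for neutrophil). These limits, and the stage limits (1200 CPM of cycle markers; mature over secondary granule ratios of 0.2 and 1), were chosen after clusters were seen. 5 clusters (1834 cells) stayed unnamed.

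UMIs were summed per library and class. Shares have exact binomial and CPM exact Poisson 95% intervals, which cover counting error only. Log2 ratios use a pseudocount of 10 CPM, for genes at 10 CPM or more in either library. A log2 ratio of 0.25 between libraries, or 1 between stages in 4 of 4 libraries, counts as past the fold. No test was run. Named members are the 5 highest and 5 lowest per comparison over all cells, the 10 with the widest range over classes, the 5 highest and lowest levels, members under 50 CPM, paralogue pairs, stalk, 5S particle, Rps14, Rps19 and Rps6, with others named as chosen after their values were seen. Some results under this rule are not reported here. In GENCODE M21, 5 members overlap another gene on the same strand (Rpl13a, Rpl13, Rpl19, Rpl24 and Rps10), so their counts are less certain, as are those of members with near-identical processed copies. In simulated counts the ratios recovered known changes. At the depth of small classes many unchanged genes also passed 0.25, so counts of members past the fold in T-like and mature cells include counting error.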

Additional observations from a re-analysis of the deposited data

Results flagged for a closer look

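The direction of the share differed between classes under the same comparison. The difference between classes was not tested, as each group is 1 library. In B12 over Control the log2 ratio of the share was 0.13 in HSC/MPP-like and 0.28 in T-like cells, and -0.12 in mitotic, -0.13 in band and -0.17 in mature neutrophil-like cells. In Butyrate over Control it was 0.10 in HSC/MPP-like and -0.12 in mature neutrophil-like cells.

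The 5 rows with -ps in the symbol, outside the rule, held 49619 UMIs, of which Rpl10-ps3 had 26298 and Rpl9-ps6 had 23234. Rplp2-ps1 had 0.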

How the results depend on the processing

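No paired analysis was possible because each group is 1 library, and for the same reason no replicate could be left out. Where a value below moved, the cause was not tested. Log2 ratios of the share over all cells are given for B12 over Control, Butyrate over Control, B12+Butyrate over B12 and B12+Butyrate over Butyrate in that order. They were -0.12, 0.032, -0.049 and -0.20 with looser filters on cells (200 genes, 500 UMIs, 20% mitochondrial) and -0.12, 0.034, -0.055 and -0.21 with stricter ones (1000 genes, 2000 UMIs, 5%). Without doublets they were -0.11, 0.038, -0.053 and -0.20, without mitochondrial UMIs -0.12, 0.043, -0.053 and -0.22, and without the granule list -0.043, 0.043, -0.035 and -0.12. The median per-cell share gave -0.76, 0.055, -0.024 and -0.84. The same makeup of classes gave 0.038, 0.047, 0.014 and 0.0059, which turns the sign of the B12 over Control ratio and of both B12+Butyrate ratios. Chosen after seeing the data, the same makeup of clusters gave 0.026, 0.028, 0.018 and 0.016, and leaving out members with mRNAs under 500 nt gave -0.12, 0.026, -0.062 and -0.20.

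The mean log2 ratio of the share in mature over S phase cells was -1.77, and -1.94 with doublets kept, -1.95 with members allowed in clustering, -1.71 and -1.84 at Leiden resolution 0.5 and 2, -1.97 without the granule list, -1.78 without mitochondrial UMIs and -1.69 for the median per-cell share. Cycle markers at 1000 CPM, added after seeing the data, left it at -1.77. For neutrophil-like over HSC/MPP-like cells it was -2.28, and -2.25 with doublets kept, -2.17 with members allowed in clustering, -2.17 and -2.39 at resolution 0.5 and 2 and -2.31 without mitochondrial UMIs. The stages at other clusterings numbered 4, except 5 at resolution 2. Members ranging 2-fold or more over classes were 40, and 37 with members allowed in clustering. That setting counted members in the scaling total and let them be chosen as variable genes, but 0 of the 2000 chosen were members.

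Members past the fold over all cells (higher and lower, in the same order of comparisons) were 0 and 2, 2 and 0, 0 and 2, and 0 and 18. Over member UMIs alone they were 1 and 0, 2 and 0, 1 and 0, and 1 and 0, and over UMIs of other genes 0 and 0, 3 and 0, 1 and 0, and 0 and 7. At a fold of 0.1 they were 2 and 47, 19 and 3, 2 and 15, and 0 and 71, and at 0.5 there were 0 in each. A pseudocount of 1 CPM gave 19 lower in the last. Of the alternative values given above, with those for members past the fold over all cells, 40 stayed within their counting interval (counts within 1.5 times), 61 did not and 6 turned their sign. Of 616 counts by class and setting, 438 stayed within 1.5 times of their value and 178 did not, 79 of those at a fold of 0.1.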

Other observations

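Clusters that stayed unnamed, or that divide a class, differed in their share over the 4 libraries together. The GMP-like class held a cluster led by Elane and Ctsg with a share of 19.7% and another led by Elane, Prtn3 and Fcnb with 13.9%. The monocyte-like cluster with the interferon-induced Ifit3 and Cxcl10 as leading genes had 15.2%, and a B-lineage-like cluster led by Vpreb1a, Igll1 and Dntt, genes of early B cells, had 13.3%, where the largest B-lineage-like cluster had 16.9%. Of the unnamed clusters, the one led by Cd209a and H2-Eb1 had 18.4%, the one led by Rora and Gata3 16.7%, the one led by Adgre4 and Pparg 9.41%, the one led by Arhgef37 and Atf3 7.16% and the one led by Il1b and Ifitm1 2.79%. The last had a median of 2643 UMIs per cell and the cluster led by Arhgef37 3473, both low for these libraries. The cluster led by Il1b and Ifitm1 scored 1.18 for erythroid and 1.07 for neutrophil markers. Its mature-stage neutrophil markers summed to 23033 CPM, but as an unnamed cluster it is not counted in the mature stage.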
